A study of Mus musculus with 4 samples.

Results

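The genes described here are 44 cell cycle genes, chosen by symbol from a fixed list out of the 55450 genes counted in 4 droplet single-cell RNA libraries of mouse liver nonparenchymal cells. The list holds 18 genes of S phase, the phase in which DNA is copied, and 24 genes of G2 and mitosis, when the copied chromosomes are condensed, attached to the spindle and parted. Stmn1, which destabilizes microtubules, and Hmgb2, a chromatin protein, complete the list and are kept apart because resting cells also carry their RNA. Measured values of these genes were not used in the rule, but the list was drawn up with earlier results of these libraries known.

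All mice were wild type, of strain C57B6 and 18 to 20 weeks old. The control mouse had normal saline. The TAA mouse was injected intraperitoneally with thioacetamide, a toxin of hepatocytes that leads to fibrosis, over 12 weeks. The other mice had the same course and, from week 5 of it, celecoxib, an inhibitor of cyclooxygenase 2, by mouth at 7.5 mg/kg (TAA+C7.5) or at 30 mg/kg (TAA+C30). Each group is 1 mouse and 1 library, so treatment cannot be told apart from the animal or the library, no test between groups is possible, and every interval below covers counting error only. The TAA library stands in 3 of the comparisons, so those comparisons are not independent of one another. A low-speed spin removed most hepatocytes before loading, so any liver class left after it is a selected remainder.

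A cell that enters the cycle first releases E2F transcription factors, which turn on the genes that load helicases on DNA, make deoxynucleotides and copy the genome. Later the MuvB complex, with B-MYB and FOXM1, turns on mitotic genes through promoter elements called CHR (cell cycle homology region) and CCAAT box. In a resting adult liver few nonparenchymal cells divide. After toxic injury, endothelial cells, cholangiocytes, resident and recruited macrophages and lymphocytes can do so, and blood-derived myeloid cells can also arrive soon after their last divisions in the bone marrow. Mki67 (coating of mitotic chromosomes) and Top2a (a topoisomerase that untangles sister chromatids) are the usual markers of cycling cells.

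The promoters of the members carry different elements in the mitotic and the S phase module. RefSeq promoter windows of 300 bases, from 250 before to 50 after the transcription start on GRCm38.p6, were matched for 38 of the 44 members. CHR was searched as TTTGAA and, with a central A in place of the G, as TTTAAA. The CCAAT box was searched as CCAAT, and E2F as TTTCCCGC or TTTGGCGC, all on both strands. No motif contains another, although matches can abut. A CHR word lay in 19 of 21 mitotic windows (90.5%) and in 5 of 16 S phase windows (31.2%), against 27.8% of the 27025 windows of all genes. TTTGAA alone lay in 16 of 21 mitotic windows and in 1 of 16 S phase windows, against 18.1% of all windows. A CCAAT box lay in 18 of 21 mitotic and 10 of 16 S phase windows, against 37.9% of all. Both CHR and CCAAT lay in 17 of the 21 mitotic windows (81.0%), against 10.9% of all windows. An E2F word lay in 7 of 16 S phase windows and in 0 of 21 mitotic windows, against 1.63% of all. The median GC content was 58.0% in mitotic, 57.3% in S phase and 52.7% in all windows. These are matches of letters, not measured binding sites.

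The 5 stretches here show the difference in words between the modules. Each runs 5′ to 3′ on the gene's own strand over the 150 bases that end just before the RefSeq start, and capitals mark the words searched. Mki67 (chr7:135716380-135716529, minus strand), Top2a (chr11:99024190-99024339, minus strand) and Cdc20 (chr4:118437344-118437493, minus strand) are mitotic members. Cdc20 activates the ubiquitin ligase that starts anaphase. Mcm6 (chr1:128359706-128359855, minus strand) and Mcm5 (chr8:75109359-75109508, plus strand) are subunits of the replicative helicase. Mcm6 was picked for display after its E2F words were seen.
Mki67: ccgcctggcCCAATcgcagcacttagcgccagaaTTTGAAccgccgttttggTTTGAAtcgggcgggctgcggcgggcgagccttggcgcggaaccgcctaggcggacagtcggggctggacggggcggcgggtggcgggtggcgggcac
Top2a: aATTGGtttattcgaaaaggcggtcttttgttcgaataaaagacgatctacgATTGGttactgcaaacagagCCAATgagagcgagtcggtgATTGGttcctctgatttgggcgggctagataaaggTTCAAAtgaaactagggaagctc
Cdc20: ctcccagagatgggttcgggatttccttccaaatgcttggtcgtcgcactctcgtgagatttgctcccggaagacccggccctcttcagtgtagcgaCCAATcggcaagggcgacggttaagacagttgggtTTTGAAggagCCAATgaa
Mcm6: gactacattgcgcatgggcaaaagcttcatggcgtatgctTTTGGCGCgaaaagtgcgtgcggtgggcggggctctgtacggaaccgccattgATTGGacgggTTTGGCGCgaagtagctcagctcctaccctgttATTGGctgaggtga
Mcm5: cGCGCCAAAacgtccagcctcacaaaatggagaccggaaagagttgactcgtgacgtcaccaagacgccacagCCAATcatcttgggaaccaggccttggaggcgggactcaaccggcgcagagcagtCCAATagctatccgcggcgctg
In Mki67 the CHR words begin 116 and 98 bases before the start. In Top2a a CHR word, read on the other strand as TTCAAA, begins 23 bases before the start, and in Cdc20 one begins 18 bases before it, between CCAAT boxes at 53 and 8. The Mcm6 stretch has no CHR word and has E2F words 110 and 47 bases before the start. Mcm5 has an E2F word, read as GCGCCAAA, 149 bases before the start and CCAAT boxes at 77 and 22. Its window also has a CHR word, 221 bases before the start and outside the stretch shown. Both S phase genes shown are among the 7 of 16 S phase windows with an E2F word.

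**Figure D1:**
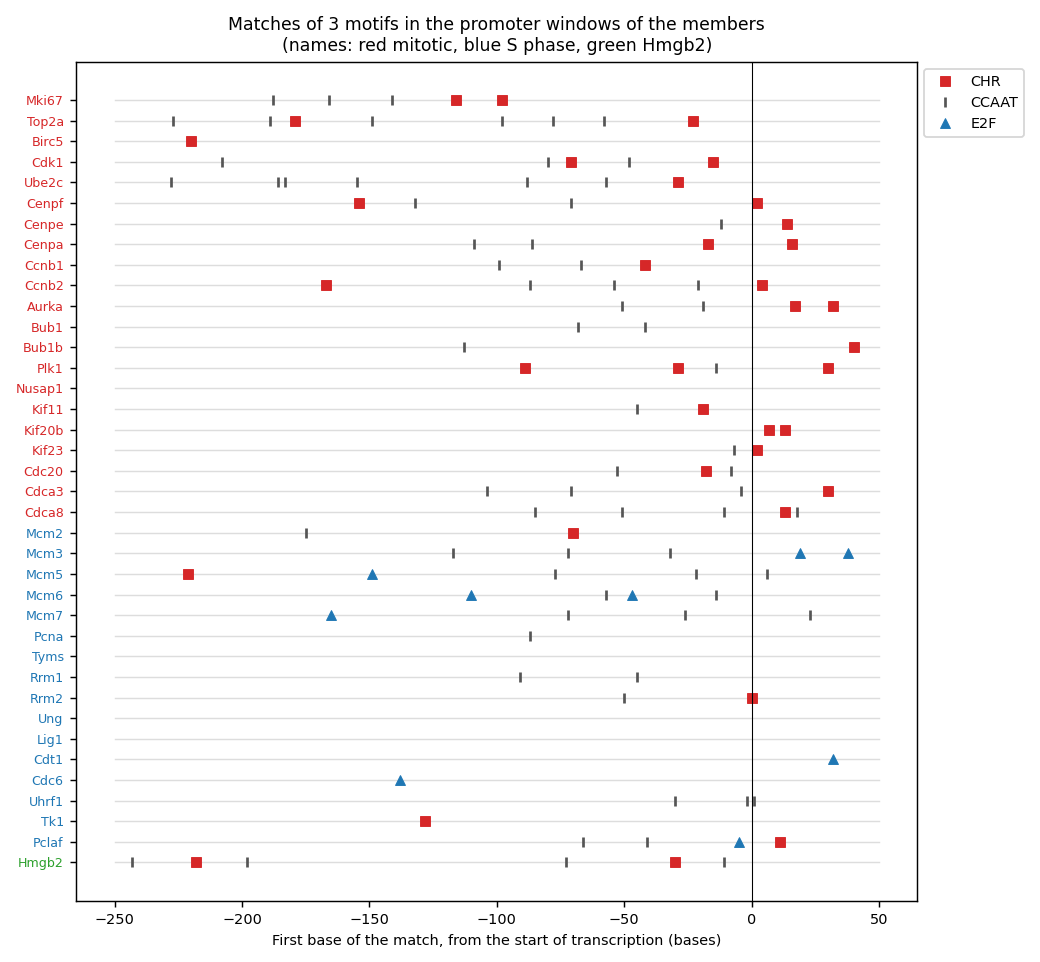
Position of each match to the CHR, CCAAT and E2F words in the promoter windows of 38 members, in bases from the transcription start (x axis, 0 is the start), with 1 line per gene. CHR squares sit on 19 of the 21 mitotic lines and E2F triangles sit on 7 of the 16 S phase lines and on none of the mitotic ones.

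The libraries held 6583 barcodes in control, 6915 in TAA, 6117 under the lower dose and 6284 under the higher dose, of which 5684, 6445, 5975 and 6068 were kept. Median depth differed, at 3369.5, 4558, 1975 and 3100.5 UMIs (molecules counted once by their tag) per kept cell in that order. Shares of cells with a UMI are therefore also given with every cell thinned to 1000 UMIs, which left out 738, 233, 676 and 473 shallower cells. Cells were clustered without the 44 members and without 98 other cell cycle genes, so that cycling cells were not drawn together by these genes. The 40 clusters were given 16 class names from fixed markers, except a few that stayed unnamed. Unnamed cells numbered 25, 46, 12 and 13 in the order of the libraries. The names mean X-like throughout, and a difference from the study's own cell types may come from them. Libraries shared 72 barcode sequences.

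Hmgb2 was the most abundant member, at 298 CPM (UMIs of a gene per 1000000 UMIs of the cells summed) in control, 486 in TAA, 498 in TAA+C7.5 and 687 in TAA+C30. These are counts of 3′ ends, which do not scale with transcript length. Among S phase members Pcna, the sliding clamp of DNA polymerase, led with 153, 151, 139 and 124 CPM in the same order. Pclaf, a PCNA-binding protein of S phase, stood at 20.9, 43.9, 31.8 and 53.5 CPM, and Mcm3, a helicase subunit, at 48.5, 36.4, 25.7 and 29.4 CPM. The highest mitotic member was Cenpa, the histone H3 variant of centromeres, with 92.3, 102, 110 and 93.6 CPM. Mki67 stood at 25.0, 46.5, 34.8 and 43.3 CPM, and Top2a at 31.3, 53.9, 37.9 and 43.9 CPM. Both were lowest in control and highest in TAA, whereas Ube2c, the E2 enzyme that acts with the anaphase-promoting complex, was highest in TAA+C30, at 14.6, 36.5, 32.7 and 50.0 CPM. Stmn1 stood at 49.4, 118, 89.3 and 105 CPM. Reads of a gene and of its processed pseudogenes can be confused, and annotated pseudogenes of Pcna, Ccnb2 and Stmn1 took only 22, 19 and 78 UMIs in all libraries together.

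Cells with Mki67 or Top2a had more RNA of every other member, by folds that differed widely between members. Since Mki67 and Top2a chose the cells, these folds are a description. The median cell with the pair had 1 other mitotic member in each library. Compared with all other cells of the same library, Bub1, a spindle checkpoint kinase, was 220-fold higher (median of the 4 libraries, range 57.6 to 389) and Ccna2, cyclin A2, 172-fold higher (149 to 418). Pclaf was 79.5-fold higher (61.7 to 90.2), the highest S phase member. At the other end, Cenpa was 1.90-fold higher (1.68 to 2.82), Ung, the uracil glycosylase, 1.95-fold, Cdt1, a licensing factor, 1.99-fold and Pcna 2.32-fold (2.02 to 3.1). These genes, with Kif23 at 4.25-fold and Hmgb2 at 4.38-fold, had much of their RNA in cells without Mki67 or Top2a. At least 5 other mitotic members were seen in 25.1%, 28.5%, 20.6% and 35.0% of cells with the pair, in the order of the libraries above, and in at most 0.50% of the others. No other mitotic member was seen in 29.0%, 30.4%, 45.1% and 31.4% of cells with the pair, the highest value being that of the shallowest library. Cells with the pair were deeper: the median was 6059, 12267, 3451 and 7349 UMIs with it and 3319, 4166, 1934 and 2939.5 without it. How far depth contributes to these folds was not tested.

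**Figure D2:**
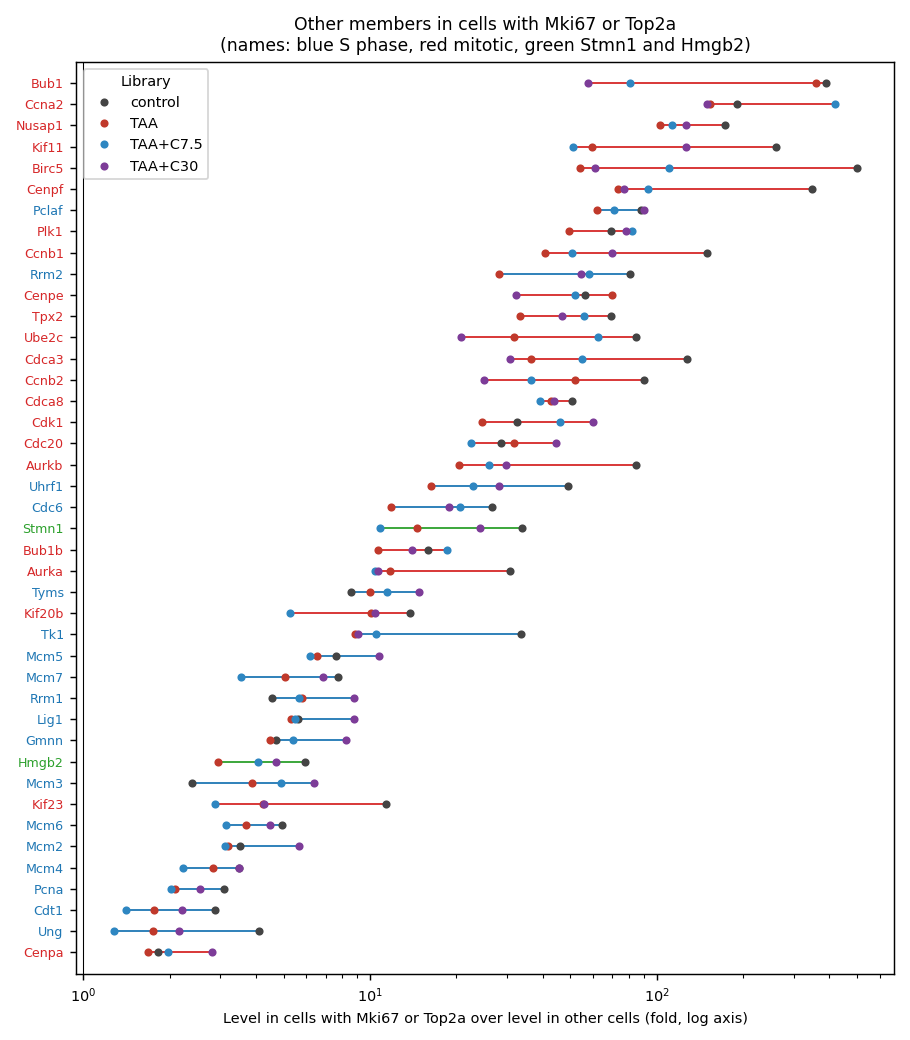
Level of each other member in cells with an Mki67 or Top2a UMI divided by its level in the remaining cells (x axis, fold, log axis), 1 point per library and a line over their range. Bub1 and Ccna2 lie highest by their medians, at 220-fold and 172-fold, and Cenpa, Ung, Cdt1 and Pcna lie lowest.

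Over all kept cells, Mki67 or Top2a was seen in 3.22% of control cells (183 of 5684, exact binomial interval 2.78 to 3.71), in 10.5% of TAA cells (678 of 6445, 9.78 to 11.3), in 5.61% of TAA+C7.5 cells (335 of 5975, 5.04 to 6.22) and in 7.78% of TAA+C30 cells (472 of 6068, 7.12 to 8.48). At equal depth the order among the thioacetamide libraries changed: the thinned shares were 1.5%, 3.32%, 2.79% and 3.32%. The TAA share was 3.27 times the control share (score interval 2.79 to 3.83) and 2.22 times it after thinning (1.71 to 2.88). TAA+C7.5 against TAA was 0.533 (0.470 to 0.604) before and 0.842 (0.684 to 1.04) after thinning, and TAA+C30 against TAA was 0.739 (0.661 to 0.827) before and 1.00 (0.825 to 1.22) after. The celecoxib libraries thus stood nearer to TAA when depth was made equal, and both thinned intervals include 1. A stricter definition, at least 3 mitotic members in a cell, gave 1.81%, 6.70%, 2.26% and 5.31%, and 0.869%, 1.92%, 1.06% and 2.16% after thinning. By that definition TAA+C7.5 against TAA was 0.552 after thinning (0.403 to 0.755), an interval that leaves out 1.

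In mature neutrophils, which do not divide, Mki67 or Top2a was seen in 0.382%, 1.57%, 0.373% and 0.719% of cells. After thinning it was seen in 0%, 0.777%, 0% and 0%, where the exact binomial upper bounds of the zeros are 1.47%, 0.981% and 0.655%. In TAA, Mki67 was seen in 1.57% of the neutrophils and Top2a in 0%, and 4 of 1084 had at least 3 mitotic members. Whether these UMIs come from free RNA was not tested. Median depth of the neutrophils was 2684, 2307, 1173.5 and 1503 UMIs. Conventional dendritic cells 2, antigen-presenting cells that renew from circulating precursors, had much higher shares, of 25.9% in control (21 of 81 cells, 16.8 to 36.9), 30.2% in TAA (25.6 to 35.0), 12.1% in TAA+C7.5 (7.18 to 18.6) and 11.7% in TAA+C30 (8.59 to 15.5). After thinning these were 13.6%, 8.57%, 6.67% and 3.49%, all above the neutrophils. Conventional dendritic cells 1 reached 39.3% in TAA, 15.4% in TAA+C7.5 and 14.0% in TAA+C30 (16.9%, 12.7% and 2.15% thinned). Plasma cells, the antibody-secreting end of the B lineage, reached 37.5% in TAA+C7.5 and 27.9% in TAA+C30 (10.9% and 10.2% thinned). At the low end, B cells had 2.81%, 2.89%, 2.23% and 1.64%, and 0.921%, 0.896%, 1.28% and 1.27% thinned. Their thinned TAA value was close to that of the neutrophils in the same library. As sequenced, TAA B cells had Top2a in 2.66% and Mki67 in 0.370% of cells, unlike the neutrophils.

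T cells had the pair in 6.85% (35 of 511), 13.3% (132 of 992), 7.45% (155 of 2080) and 9.51% (131 of 1378) of cells, and in 3.07%, 5.05%, 4.14% and 4.83% after thinning. Monocytes or macrophages had 6.80% (14 of 206), 12.2% (155 of 1266), 6.58% (36 of 547) and 10.6% (162 of 1534), and 2.01%, 3.31%, 2.0% and 4.22% thinned. In both classes TAA stood above control before thinning, by 1.94 (1.37 to 2.78) and 1.80 (1.08 to 3.05). The thinned ratios were 1.65 in T cells (0.942 to 2.89) and 1.65 in monocytes or macrophages (0.626 to 4.40), and both intervals include 1. Endothelial cells had 1.52% in control (44 of 2886) and 12.8% in TAA (34 of 266), and 0.838% and 5.24% thinned, ratios of 8.38 (5.45 to 12.8) and 6.26 (3.13 to 12.4). Kupffer cells, which are macrophages that live in the sinusoids, had 2.64% in control (10 of 379) and 18.6% in TAA (24 of 129). Their median depth was 1408 and 9470 UMIs, and the thinned ratio of 1.80 (0.592 to 5.46) did not separate the libraries beyond counting error.

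**Figure D3:**
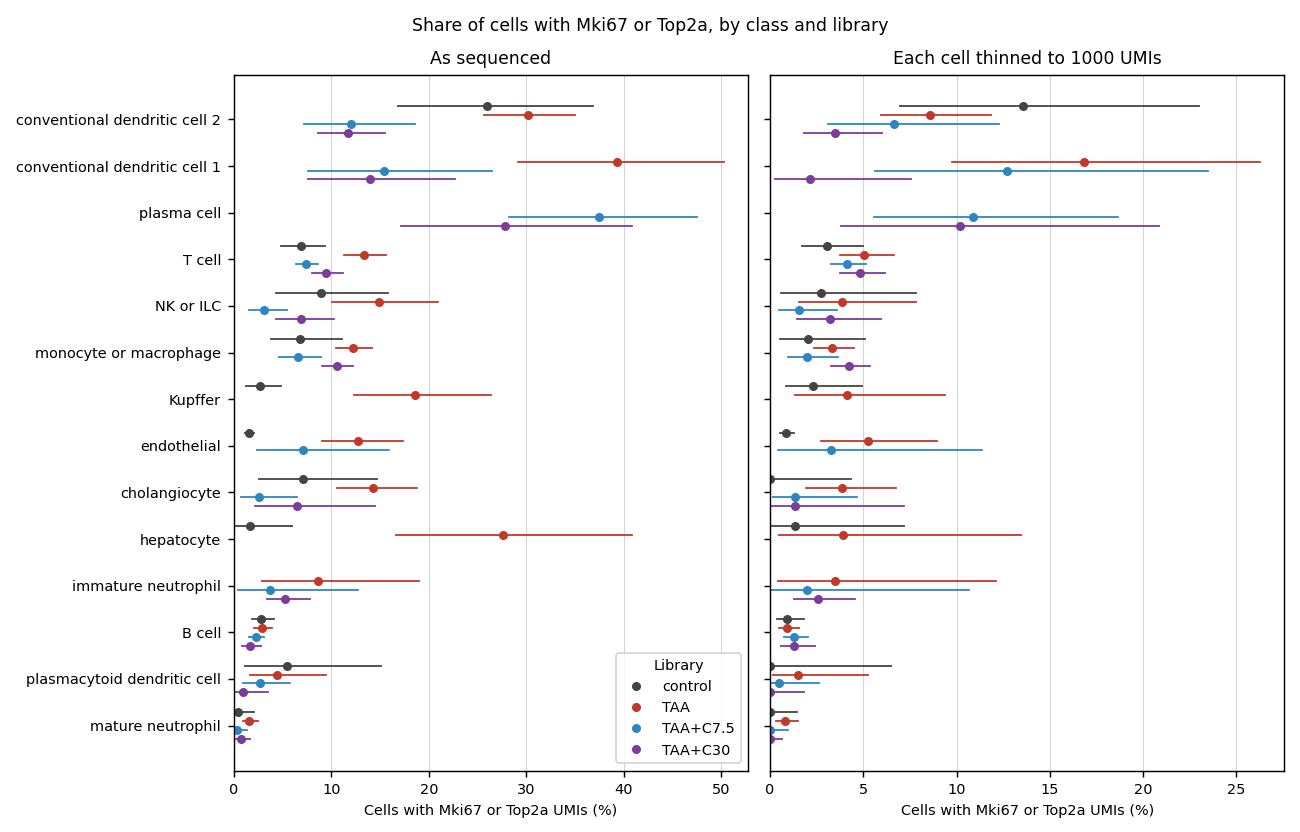
Share of cells with an Mki67 or Top2a UMI (x axis, percent) by class, 1 point per library with at least 50 cells, bars showing exact binomial intervals, as sequenced (left) and with each cell thinned to 1000 UMIs (right). Conventional dendritic and plasma cells lie among the highest, plasmacytoid dendritic cells and mature neutrophils among the lowest, and thinning draws the libraries of a class together.

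Summed over the 24 mitotic members, the level was 300 CPM in control (exact Poisson interval 293 to 307), 522 in TAA (515 to 528), 413 in TAA+C7.5 (404 to 423) and 517 in TAA+C30 (509 to 526). TAA stood 1.74 times above control (1.69 to 1.79), TAA+C7.5 at 0.792 of TAA (0.771 to 0.813), and TAA+C30 at 0.991 of it. The 18 S phase members differed less between libraries, with 457, 527, 483 and 482 CPM, and TAA was 1.15 times control. The S phase level was thus 1.52 times the mitotic level in control and 1.01, 1.17 and 0.932 times it in the other libraries. In bulk sums of this kind, more cycling cells, more RNA per cycling cell and another mix of classes cannot be told apart. The mix behind these sums and the shares above differed: endothelial cells were 50.8% of kept cells in control and 4.13% in TAA.

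A few genes carry the sums in classes that hardly cycle. Cenpa made up 30.8%, 19.5%, 26.7% and 18.1% of mitotic UMIs over all cells, but 78.8%, 80.7%, 69.3% and 77.9% in B cells and 81.4%, 80.5%, 63.4% and 76.4% in plasmacytoid dendritic cells. In mature neutrophils Kif23, a kinesin of the central spindle, made up 73.4%, 54.0%, 57.3% and 58.7%, at 135, 76.5, 70.6 and 74.7 CPM. Hmgb2 was higher in these non-dividing neutrophils, at 1175, 1064, 1040 and 974 CPM, than over all cells. Mki67 stood there at 0, 8.63, 1.5 and 3.56 CPM. A mitotic sum led by Cenpa or Kif23 is accordingly no measure of dividing cells in these classes.

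Monocytes or macrophages had a mitotic level of 133 CPM in control (113 to 154), 365 in TAA (355 to 375), 260 in TAA+C7.5 (241 to 281) and 561 in TAA+C30 (546 to 577). T cells had 316, 527, 508 and 587 CPM, and NK cells or innate lymphoid cells (ILC) 110, 485, 322 and 313 CPM. Conventional dendritic cells 2 ran the other way, from 1732 in control and 983 in TAA to 334 and 375 CPM under the celecoxib doses. Cholangiocytes, the bile duct cells, had 35.3, 389, 340 and 861 CPM. B cells had 260, 259, 314 and 200 CPM. The order of libraries by mitotic sum therefore differed between classes: TAA+C30 was the highest library in T cells, monocytes or macrophages and cholangiocytes, and the lowest in B cells. In cholangiocytes the share of cells gave another order. The pair was seen in 7.06%, 14.3%, 2.56% and 6.49% of them, and in 0%, 3.83%, 1.32% and 1.33% after thinning. At least 3 mitotic members were seen in 4.71%, 9.97%, 3.21% and 5.19%, the last being 4 of 77 cells.

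**Figure D4:**
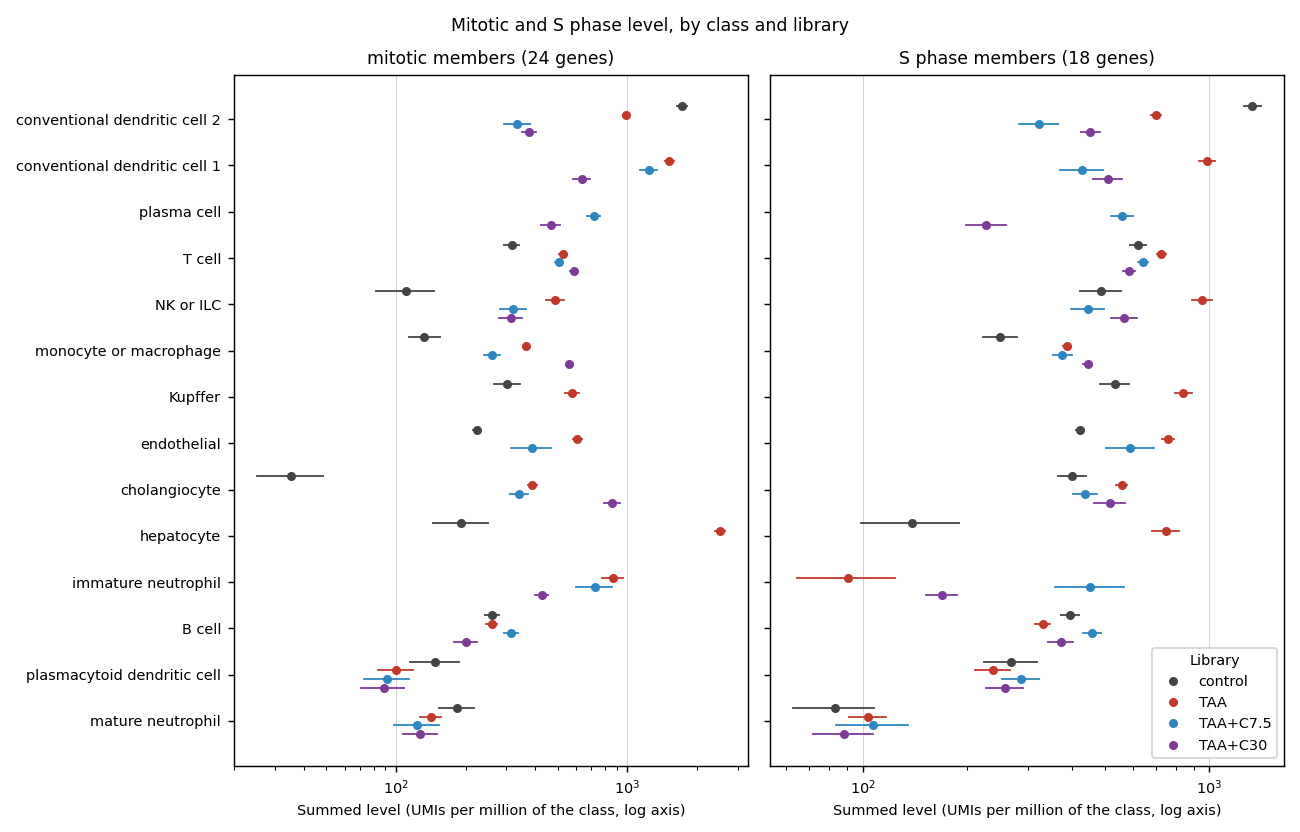
Summed level of the 24 mitotic (left) and 18 S phase (right) members (x axis, CPM of the class, log axis) by class, 1 point per library with at least 50 cells, bars showing exact Poisson intervals. TAA lies above control in the endothelial, Kupffer, NK or ILC and monocyte or macrophage rows, and the celecoxib libraries lie below TAA in conventional dendritic cells 2.

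Comparing TAA with control asks how the injured liver differed from the normal one. A gene was counted as higher or lower when class sums with 10 CPM added differed by at least 1.5-fold, and a gene was measured in a class if the pair of libraries gave it 10 UMIs or more. In monocytes or macrophages 24 of 44 members were higher in TAA, against 6.21% of all genes measured in that class. The median log2 ratio of members was 0.64, against -0.03 for all genes. Of the 44 members 32 had fewer than 10 UMIs in control and were measured through TAA, so these figures are a description and no support. By module, 18 of 24 mitotic and 5 of 18 S phase members were higher. Mki67 stood at 1.58 CPM in control (2 UMIs) and 29.2 in TAA, a ratio of 18.5 with a counting interval of 5.09 to 153. Birc5 (survivin, of the chromosomal passenger complex) stood at 1.58 (2 UMIs) and 19.9 CPM, a ratio of 12.6 (3.46 to 105). Pclaf went from 2.37 CPM (3 UMIs) to 24.3, a ratio of 10.3 (3.49 to 50.1), and Tk1, thymidine kinase, from 2.37 (3 UMIs) to 13. Ccnb2, cyclin B2, had no UMI in control and 12.1 CPM in TAA. Stmn1 rested on more control molecules and stood at 6.31 and 59.6 CPM, a ratio of 9.44 (4.77 to 22.0), whereas Hmgb2 was at 367 and 316 CPM. Control held 206 such cells, of which 1 had at least 3 mitotic members, and TAA 1266, of which 105 did. The class is made of different clusters in the 2 libraries, with 82, 94 and 30 control cells and 468, 143 and 655 TAA cells in clusters led by F13a1, Ace and Trem2. The mitotic level was 153 CPM in control and 455 in TAA in the F13a1 cluster, and 123 and 119 CPM in the Ace cluster.

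Endothelial cells had 34 of 44 members higher in TAA, all of them with at least 10 UMIs in each library, against 5.64% of all genes, and a median log2 ratio of 0.84 (all genes -0.02). Both modules took part, with 18 of 24 mitotic and 14 of 18 S phase members. The mitotic sum was 224 CPM in control, 609 in TAA and 385 in the 70 cells of TAA+C7.5, and TAA was 2.72 times control (2.57 to 2.89). A single cluster of 71 TAA cells, led by Ednrb and Iigp1 and singled out after its values were seen, gave 1351 of the 1776 mitotic UMIs of TAA, at 1065 CPM. The other 195 TAA cells had a mitotic level of 258 CPM (234 to 284), near the 224 CPM of control, and one cluster of 54 of them stood at 120 CPM. The S phase level of these 195 cells was 581 CPM (545 to 619), against 430 CPM in the largest control cluster. Only TAA had its top cluster left out, and the control sum keeps a cluster of 64 cells at a mitotic level of 950 CPM. Top2a stood at 17.6 and 80.2 CPM, a ratio of 4.55 (3.77 to 5.49), and Birc5 at 4.94 and 33.6 CPM, a ratio of 6.81 (4.91 to 9.50). Mki67 stood at 12.4 and 47.0 CPM. Uhrf1, which keeps DNA methylation through replication, stood at 4.31 and 20.2 CPM, Pclaf at 7.44 and 27.8 CPM, and Stmn1 at 33.2 and 143 CPM. Of the other cell cycle genes 45 of 98 were higher and none lower, among them Ckap2l, a spindle protein, at 7.44 and 46.3 CPM. Cdkn1a, which codes for the cyclin kinase inhibitor p21, was also higher, at 98.9 and 328 CPM. Different clusters hold the class in the 2 libraries: a cluster led by Cyp26b1 and Stab2 gave 1748 of the 2886 control cells, while the Ednrb and Iigp1 cluster gave 71 and 3 other clusters gave 54, 45 and 42 of the 266 TAA cells. Median depth was 3568 and 11153.5 UMIs, and the part of cluster and depth in the result was not tested beyond the thinned share above.

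In Kupffer cells 22 of 43 measured members were higher, but 14.7% of all genes were too, the highest background of these comparisons, and 22 of the 43 had fewer than 10 UMIs in control, so the count is no support. Markers of other cells moved with it: summed over the class, 11 erythroid markers stood at 26443 CPM in control and 1496 in TAA, 14 endothelial markers at 2427 and 648 CPM, and 12 hepatocyte markers at 529 and 86.9 CPM. Their part in the result was not tested. Mki67 stood at 11.6 and 53.6 CPM (ratio 4.64, 2.32 to 10.5), Cdca3, a trigger of mitotic entry, at 6.42 and 30.4 CPM, Mcm5 at 14.1 and 49.3 CPM and Pclaf at 21.8 and 68.1 CPM. In NK cells or ILC 29 members had enough UMIs and 22 of them were higher, against 10.4% of all genes. Members with few molecules in control enter this comparison through TAA only, so the count is no support. Mki67 had no UMI in the 112 control cells and 43.8 CPM in TAA, at least 6.62-fold higher against a floor of 3 counts in the library. Top2a stood at 24.3 and 78.7 CPM, and Stmn1 at 35.3 and 199 CPM (ratio 5.64, 3.39 to 10.1).

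T cells showed fewer and smaller differences, with 10 of 44 members higher, against 2.16% of all genes, and 7 of the 44 had fewer than 10 UMIs in control. Ccnb2 stood at 2.56 and 16.0 CPM, a ratio of 6.25 (2.75 to 17.5), and Cenpe, a kinetochore motor, at 2.56 and 13.1 CPM. Pclaf stood at 29.8 and 61.8 CPM, a ratio of 2.07 (1.60 to 2.72), and Gmnn, geminin, the inhibitor of licensing, at 15.8 and 30.6 CPM. Mki67 was at 29.8 and 58.8 CPM and Top2a at 47.7 and 83.3 CPM. Here too Cdkn1a was higher, at 23.4 and 68.8 CPM (ratio 2.94, 2.21 to 3.97), as was Cks2, a cyclin kinase subunit, at 25.6 and 77.6 CPM. In NK cells or ILC Cdkn1a stood at 13.2 and 107 CPM (ratio 8.05, 3.58 to 22.4). B cells differed little: the mitotic ratio was 0.996 (0.910 to 1.09), the S phase ratio 0.833, and Mki67 stood at 1.03 and 1.21 CPM.

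Comparing TAA+C30 with TAA asks how the higher celecoxib dose differed from thioacetamide alone. In monocytes or macrophages 8 of 44 members were higher in TAA+C30, against 1.70% of all genes, and the mitotic sum was 1.54 times that of TAA (1.48 to 1.60). Ube2c stood at 4.73 CPM in control, 24.4 in TAA, 14.6 in TAA+C7.5 and 62.5 in TAA+C30, 2.56 times TAA (2.23 to 2.94). Ccnb2 stood at 0, 12.1, 7.12 and 35.9 CPM, 2.96 times TAA (2.45 to 3.59). Pclaf stood at 2.37, 24.3, 30.5 and 56.4 CPM, 2.32 times TAA, and Rrm2, the small subunit of ribonucleotide reductase, at 1.58, 5.69, 10.3 and 17.1 CPM, 3.0 times TAA (2.27 to 3.99). Mki67, at 29.2 in TAA and 46.5 in TAA+C30, and Top2a, at 32.2 and 38.5, differed less. All of these genes were higher in TAA+C30 than in the other libraries. Hmgb2 stood at 367, 316, 414 and 637 CPM, and its TAA+C30 level was 2.02 times that of TAA. Over the whole class, 11 mature neutrophil markers summed to 1091 CPM in TAA and 2135 in TAA+C30, and 10 immature neutrophil markers to 295 and 787 CPM, and their part in the result was not tested.

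The share of cells gives a weaker order than the sums. TAA+C30 against TAA was 0.863 for the share with the pair (0.701 to 1.06) and 1.27 after thinning (0.864 to 1.88), and 2.33 after thinning for at least 3 mitotic members (1.40 to 3.89). Thinned shares with at least 3 mitotic members were 0%, 1.57%, 1.00% and 3.67% in the order of the libraries. The 0% of control allows up to 1.84% by its exact binomial interval, and before thinning 1 of its 206 cells had that many (0.485%).

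Different clusters hold most of the monocytes or macrophages in these libraries. A cluster led by Ms4a7, Gpnmb and Trem2, genes of lipid-handling macrophages, had 655 TAA and 346 TAA+C30 cells, and its mitotic level was 353 and 251 CPM, a ratio of 0.71 (0.65 to 0.78). A cluster led by F13a1, Fn1 and Vcan, genes of inflammatory monocytes, had 468 TAA and 1091 TAA+C30 cells, and its mitotic level was 455 and 697 CPM, a ratio of 1.53 (1.45 to 1.62). The remaining large cluster, led by Ace and Ear2, had 119 and 126 CPM. Within the class, TAA+C30 was thus higher in the F13a1 cluster and lower in the Trem2 cluster, and the TAA+C7.5 levels were 178 in the Trem2 and 366 CPM in the F13a1 cluster. S phase levels were higher in TAA+C30 in both, by 1.10 (1.03 to 1.17) and 1.70 (1.58 to 1.83).

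The class call matters for this result. When the cell cycle genes were let into the clustering, 65 TAA+C30 cells of this class and 9 TAA cells, every one with at least 3 mitotic members, went to the myeloid progenitor class, and the mitotic ratio became 0.735. In the main clustering the TAA+C30 cells with at least 3 mitotic members carried 14 of 14 monocyte or macrophage markers, at 7504 CPM summed against 7157 CPM in the other cells of the class. Their myeloid progenitor markers, 10 of 10 with a UMI, summed to 2245 CPM against 2043 CPM, and immature neutrophil markers to 1186 against 711 CPM. In TAA the corresponding sums were 6901 against 7424, 1310 against 1548 and 312 against 293 CPM. The progenitor marker sum is not particular to progenitors: in TAA+C30 it was 9403 CPM in mature neutrophils and 1146 CPM in T cells. These sums cover all cells of the class with at least 3 mitotic members. They therefore cannot show what the 65 renamed cells are. The part of marrow-like precursors in the TAA+C30 level was not tested.

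TAA+C30 against TAA+C7.5 gave 18 of 44 members higher in this class, against 0.902% of all genes, of which 15 were mitotic and 1 was of S phase. Of these 44 members 8 had fewer than 10 UMIs in TAA+C7.5. Ube2c was 4.27 times (3.06 to 6.12) and Ccnb2 5.05 times (3.15 to 8.62) the TAA+C7.5 level, and the mitotic sum was 2.16 times it (1.99 to 2.34). TAA+C7.5 against TAA gave 4 of 44 members lower, all mitotic, against 1.95% of all genes, and 8 of the 44 had fewer than 10 UMIs in TAA+C7.5. Cenpf, a kinetochore protein, stood at 14.1 CPM in TAA and 2.77 CPM (7 UMIs) in TAA+C7.5, a ratio of 0.197 (0.078 to 0.413), and Cenpe at 13.3 and 4.35 CPM.

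Conventional dendritic cells 2 had lower members under both doses. In TAA+C7.5 33 of 43 measured members were lower than in TAA, against 4.06% of all genes, and in TAA+C30 28 of 44 were, against 2.35%. Of the 43 members 27 had fewer than 10 UMIs in TAA+C7.5 and were measured through TAA, so the first count is a description and no support. Mki67 stood at 280 CPM in control, 103 in TAA, 43.4 in TAA+C7.5 and 29.0 in TAA+C30. Top2a stood at 273, 115, 32.2 and 39.4 CPM. For both genes control stood above TAA and TAA above both celecoxib libraries, though control rests on 81 cells and was not compared. Birc5 stood at 73.4, 67.5, 11.2 and 13.4 CPM, with ratios to TAA of 0.166 (0.071 to 0.331) and 0.199 (0.133 to 0.288). Ube2c stood at 102, 78.3, 18.2 and 18.2 CPM. Cdca3 stood at 38.4, 30.4, 2.80 (2 UMIs) and 6.06 CPM, and its TAA+C7.5 ratio was 0.0919 (0.011 to 0.338). Of the S phase members, Pclaf stood at 247, 109, 15.4 and 37.3 CPM, and Tyms, thymidylate synthase, at 26.0, 28.9, 5.6 and 11.3 CPM.

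The mitotic sum of these dendritic cells was 0.340 of TAA (0.297 to 0.387) under the lower and 0.381 (0.354 to 0.410) under the higher dose, and the S phase sum was 0.459 and 0.648. With cell cycle genes in the clustering the mitotic ratios became 0.731 and 0.765, as 30 cells of the class from TAA, 11 from control, 8 from TAA+C30 and 2 from TAA+C7.5, all with at least 3 mitotic members, went to the myeloid progenitor class. The doses themselves stood closer together, with a mitotic ratio of 1.12 (0.971 to 1.30) and an S phase ratio of 1.41 for TAA+C30 against TAA+C7.5. Pclaf was 2.42 times higher in TAA+C30 than in TAA+C7.5, and Mcm4 2.91 times. For the share of cells, TAA+C30 against TAA was 0.389 (0.281 to 0.535) and 0.407 after thinning (0.215 to 0.765), while TAA+C7.5 went from 0.400 (0.248 to 0.630) to 0.778 (0.384 to 1.54). Median depth was 12100.5 UMIs in TAA against 5217 and 6385. Of the other cell cycle genes 36 of 94 were lower and none higher in TAA+C7.5, where 4.06% of all genes were lower. In TAA+C30 31 of 97 were lower and 1 higher, where 2.35% of all genes were lower. Genes with few UMIs in a celecoxib library could be measured here through TAA, so these counts are a description and no support. Ccnd2, cyclin D2, stood at 448 CPM in TAA, 278 in TAA+C7.5 and 178 in TAA+C30. Among cells of this class with at least 3 mitotic members, dendritic markers summed to 1767 CPM in TAA against 2418 CPM in the rest, and to 1194 against 1586 CPM in TAA+C30, so cycling cells had less of the class's own markers in both.

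NK cells or ILC also had lower members, 16 of 40 in TAA+C7.5, against 6.94% of all genes, and 16 of 40 in TAA+C30, against 5.87%. Of the 40 members 17 had fewer than 10 UMIs in TAA+C7.5 and 12 in TAA+C30, so these counts too are no support. Most were S phase members, 12 of 17 and 10 of 17, whereas 3 of 21 and 5 of 21 mitotic members were lower. Pclaf stood at 4.42 CPM in control (2 UMIs), 99.6 in TAA, 4.09 in TAA+C7.5 (3 UMIs) and 28.5 in TAA+C30, with ratios to TAA of 0.041 (0.00832 to 0.123) and 0.286 (0.180 to 0.441). Top2a stood at 24.3, 78.7, 20.4 and 46.4 CPM, and Lig1, the ligase that joins lagging-strand fragments, at 19.9, 60.8, 23.2 and 20.1 CPM. TAA was the highest library for each of these. Mki67 was at 43.8 CPM in TAA, 17.7 in TAA+C7.5 and 20.1 in TAA+C30. The class is small, with 181, 355 and 306 cells in these libraries. The thinned share ratio of TAA+C7.5 to TAA was 0.400 (0.136 to 1.18), and that of TAA+C30 to TAA was 0.825 (0.324 to 2.11), so both intervals include 1. In TAA the cells with at least 3 mitotic members summed to 4173 CPM of NK or ILC markers, against 7342 CPM in the rest.

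T cells differed less between TAA and the celecoxib libraries. Under the lower dose 1 of 44 members was higher, Ube2c, and 1 lower, Rrm2. In TAA+C30 3 of 44 were higher, all mitotic, against 0.651% of all genes. Ube2c stood at 11.5, 21.5, 39.2 and 50.7 CPM over the 4 libraries, 2.36 times TAA in TAA+C30 (1.87 to 2.99), and Cdc20 at 6.39, 4.94, 9.31 and 13.7 CPM, 2.76 times TAA (1.71 to 4.57). Mki67 stood at 29.8, 58.8, 39.6 and 57.4 CPM and Top2a at 47.7, 83.3, 57.6 and 60.4 CPM, so neither was above TAA. The mitotic sum was 1.11 times TAA (1.06 to 1.18) and the S phase sum 0.808, and with every cell weighted alike the mitotic ratio was 0.837.

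Inside the T cell class the clusters went separate ways. In a cluster led by Il17a and Icos, genes of activated and interleukin 17-making cells, the mitotic level was 854, 856, 1488 and 1063 CPM. A cluster led by Lef1, a gene of naive T cells, had 159, 265, 181 and 133 CPM. One led by Cd3d and Trac had 320, 493, 321 and 787 CPM, and TAA+C30 was 1.60 times TAA there (1.47 to 1.73). One led by Pdcd1, Cd8a and Gzmk, genes of antigen-experienced CD8 T cells, had 730, 688 and 385 CPM in TAA, TAA+C7.5 and TAA+C30, and held 88, 683 and 305 cells there. By mitotic level TAA+C7.5 was therefore highest in the Il17a cluster, TAA+C30 in the Trac cluster and TAA in the Lef1 cluster. In the Gzmk cluster the intervals of TAA (647 to 822) and TAA+C7.5 (646 to 733) overlapped, and both lay above TAA+C30 (341 to 433). The S phase level did not follow: its ratio to TAA was 0.878 (0.785 to 0.981) for TAA+C7.5 in the Il17a cluster. For TAA+C30 in the Trac cluster it was 0.894 (0.828 to 0.965). Cycling T cells of the TAA library also carried B cell markers, 11 of 12 with a UMI and 260 CPM summed against 29.0 CPM in the other T cells, and in TAA+C30 the sums were 52.7 and 41.1 CPM. The part of mixed droplets in the TAA value was not tested.

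B cells had 5 of 35 measured members higher in TAA+C7.5 than in TAA, against 1.40% of all genes. Mki67 stood at 1.03 CPM in control, 1.21 in TAA, 14.8 in TAA+C7.5 and 2.61 in TAA+C30, 12.3 times TAA under the lower dose (5.13 to 35.6). Pclaf stood at 3.77, 3.62, 17.2 and 1.30 CPM (2 UMIs in TAA+C30), 4.75 times TAA (2.68 to 8.75), and Gmnn at 4.11, 7.24, 17.6 and 12.4 CPM. TAA+C7.5 was the highest library for each. Few cells carried this: the 37 Mki67 UMIs of TAA+C7.5 lay in 0.459% of its 1524 B cells, against 0.370% in TAA. The share with the pair was 2.23% against 2.89%, and 3 cells had at least 3 mitotic members against 16 in TAA, a ratio of 0.166 (0.052 to 0.532). With cell cycle genes in the clustering 2 of those 3 cells became plasma cells. Median depth of the B cells was 1557.5 UMIs in TAA+C7.5 and 3308 in TAA. After thinning the share with the pair was 1.28% against 0.896%, a ratio of 1.43 (0.696 to 2.94). At least 3 mitotic members were then seen in 2 cells against 1, a ratio of 2.02 (0.265 to 15.4). Both thinned ratios lay above 1, and both intervals include 1. Of the 35 members 9 had fewer than 10 UMIs in TAA+C7.5 and 10 in TAA. Cenpa, at 205, 209, 217 and 156 CPM, and Cdt1, at 93.1, 61.8, 72.4 and 69.8 CPM, stayed far above these genes. The mitotic ratio of TAA+C30 to TAA+C7.5 was 0.638 (0.557 to 0.729).

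**Figure D5:**
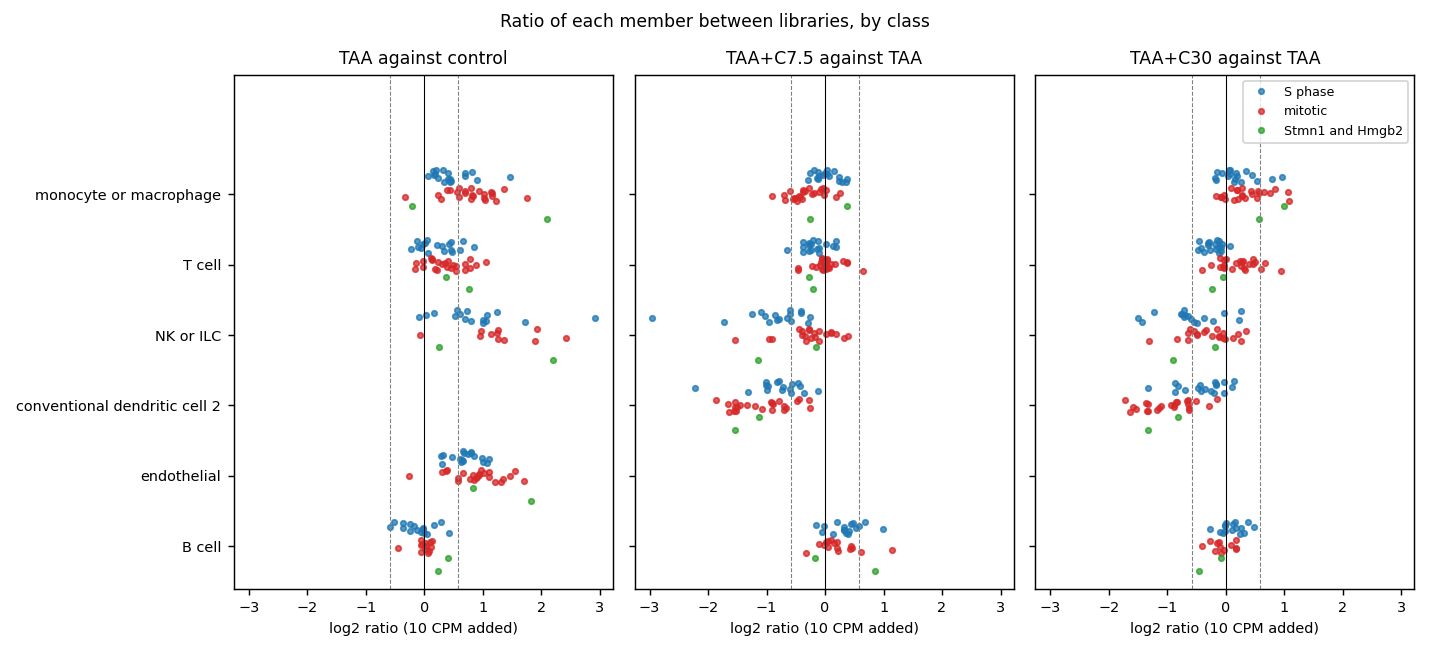
Log2 ratio of each member between libraries (x axis, 10 CPM added, dashed lines at 1.5-fold) in 6 classes, 1 point per member, for TAA against control, TAA+C7.5 against TAA and TAA+C30 against TAA. Endothelial points lie mostly to the right of 0 in the first panel, and dendritic cell points lie mostly to the left in the others.

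The other 98 cell cycle genes are a list of G1 cyclins, inhibitors, E2F and FOXM1 regulators, replication, checkpoint, spindle and chromatin genes. How many of them had fewer than 10 UMIs in either library of a comparison was not counted. Some can be measured through the TAA library only, so counts of them are a description and no support. In monocytes or macrophages 10 of these genes were higher and 8 lower in TAA than in control, where 6.21% of all genes were higher. The share of all genes is given here for a single direction of each comparison. Counts in the other direction are not read as a result. TAA+C7.5 against TAA gave 2 higher and 3 lower, where 1.95% of all genes were lower. TAA+C30 against TAA gave 8 higher and 2 lower, where 1.70% of all genes were higher. Ccnd3, cyclin D3, stood at 175, 58.1, 115 and 112 CPM over the libraries, and Cdkn2d, the inhibitor p19, at 124, 41.7, 98.1 and 92.9 CPM. Both were lowest in TAA. Cks1b, a cyclin kinase subunit, followed the mitotic members, at 13 CPM in TAA and 33.2 CPM in TAA+C30. In NK cells or ILC 33 of 75 were higher and 5 lower in TAA than in control, where 10.4% of all genes were higher. There 1 was higher and 24 of 77 lower in TAA+C7.5 than in TAA, where 6.94% of all genes were lower. In T cells 10 of 97 were higher and 1 lower in TAA, where 2.16% of all genes were higher. Under either dose against TAA 1 of 98 was higher and none lower in T cells, and 0.651% of all genes were higher in TAA+C30.

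Cells with at least 3 mitotic members lay in different classes in each library. In control, endothelial cells held 35.9% of them, being 50.8% of all cells, and conventional dendritic cells 2 held 21.4%, being 1.43% of all cells, though 11 of these 22 cells became myeloid progenitors when cell cycle genes entered the clustering. In TAA, monocytes or macrophages held 24.3% and conventional dendritic cells 2 held 18.1%, being 19.6% and 6.02% of cells, and 30 of those 78 dendritic cells were renamed in the same way. In TAA+C7.5, T cells held 34.8%, the same as their share of cells, and plasma cells 16.3%, being 1.74%. In TAA+C30, monocytes or macrophages held 47.8%, being 25.3% of cells, and myeloid progenitors 9.32%, being 0.692%. As sequenced, conventional dendritic, plasma and progenitor cells thus held more of the cycling cells than of all cells, whereas plasmacytoid dendritic cells held at most 0.311% of them. After thinning, conventional dendritic cells 2 of TAA+C30 held 7 of 121 such cells, being 344 of 5595 cells, which is no excess. They kept an excess in the other libraries, and plasma and progenitor cells kept theirs in the libraries named above. Monocytes or macrophages then held 19 of 119 in TAA, being 1208 of 6212, and 53 of 121 in TAA+C30, being 1446 of 5595. Of the 42 myeloid progenitor cells of TAA+C30, 30 had the pair (71.4%), of the 25 of TAA+C7.5, 7 did (28.0%), and of the 17 of TAA, 7 did (41.2%). Median depth was 14367.5, 5101 and 6632 UMIs in that order. After thinning the shares were 25.0% (12.7 to 41.2), 13.6% (2.91 to 34.9) and 18.2% (2.28 to 51.8), so the intervals overlap. All 3 groups hold fewer than 50 cells.

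With the cells of at least 3 mitotic members left out, few members differed. The count in monocytes or macrophages for TAA against control went from 24 of 44 to 2 of 35 measured, in endothelial cells from 34 of 44 to 2 of 31, and in T cells from 10 of 44 to 1 of 30. In conventional dendritic cells 2 it went from 33 of 43 to 3 of 25 for TAA+C7.5 and from 28 of 44 to 2 of 27 for TAA+C30 against TAA. In monocytes or macrophages TAA+C30 against TAA went from 8 of 44 to 1 of 37. The cells left out were picked by members of the list, so part of this drop is built in. With all cells in, the shares over all genes were 6.21%, 5.64%, 2.16%, 4.06%, 2.35% and 1.70% in the order above. These shares were not computed with the cells left out.

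The hepatocyte class, 119 cells in control and 58 in TAA left after the spin, had in TAA the highest mitotic level of any class and library with at least 50 cells, at 2517 CPM, and stood at 192 CPM in control. In TAA, 24 of the 58 cells had at least 3 mitotic members (41.4%, and 23.5% after thinning), and the S phase level was only 0.297 times the mitotic level. Mki67 or Top2a was seen in 1.68% of these cells in control and 27.6% in TAA. After thinning the shares were 1.33% (0.0338 to 7.21) and 3.92% (0.478 to 13.5), so the intervals overlap. Median depth was 1261 UMIs in control and 5042.5 in TAA. Ube2c stood at 3.55 CPM (1 UMI) in control and 400 CPM in TAA, Cdc20 at 21.3 and 294 CPM, Birc5 at 10.7 and 250 CPM, and Cdk1, the kinase of mitotic entry, at 3.55 and 225 CPM. These genes, all of the late cycle, were higher in hepatocytes than in every other class of the TAA library with at least 50 cells. Fewer than 100 TAA cells were present, so no ratio was formed, and the low-speed spin sets which hepatocytes remained.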

How the data were processed

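Counts of unique molecular identifiers (UMIs) per gene and barcode were deposited by the authors, made with Cell Ranger 3.1.0 on mm10 per the file headers and the submitters' processing notes. Chemistry was single cell 3′ v2 per the labels. Barcodes with at least 200 genes and at most 20% mitochondrial UMIs were kept, and doublets called by Scrublet within scanpy at an expected rate of 5% were removed (104, 67, 108 and 110). Of 108 symbols listed more than once, the entry with most UMIs was used. Cells were normalized, reduced to 2000 variable genes and 30 principal components, and clustered over 20 neighbours at resolution 1 without cell cycle genes (scanpy 1.11.5, Python 3.11.15). Clusters of at least 60 cells that got no name were split again at resolution 0.5. The myeloid progenitors and the endothelial cluster led by Ednrb and Iigp1 came from this second round. A cluster was named from at least 3 fixed markers at 2-fold, and the naming thresholds were set after the data were seen.

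With 1 mouse per group no test was run. Shares carry exact Clopper-Pearson, sums exact Poisson and ratios exact conditional binomial or score 95% intervals, covering counting error only. Member ratios are log2 of class sums in CPM plus 10, for classes of at least 100 cells in both libraries. Genes measured had at least 10 UMIs. Scripts were tested on simulated data. Named genes are Mki67 and Top2a, up to 2 members per module and direction past 1.5-fold with at least 30 UMIs, the 3 highest members per module, and 1 per other group and direction. Hepatocyte genes, Ube2c, Ccnb2 and genes with values repeated across libraries were also named after their values were seen. Members, lists and parts of the settings were chosen with earlier results of these libraries known. Promoters came from RefSeq (GRCm38.p6). Alternatives included thinning, TMM scaling, 1 CPM added, other cell definitions and other clusterings.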

Additional observations from a re-analysis of the deposited data

Results flagged for a closer look

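The ratio of the mitotic level of TAA+C30 to TAA lay on opposite sides of 1 in different classes. It was 1.54 in monocytes or macrophages, 0.646 in NK cells or ILC and 0.381 in conventional dendritic cells 2, each a pair of mice, and the difference was not tested. The value in monocytes or macrophages became 0.735 when cell cycle genes entered the clustering. TAA+C30 against TAA+C7.5 likewise gave 2.16 in monocytes or macrophages and 0.638 in B cells, and that difference was not tested either.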

How the results depend on the processing

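Over all cells, thinning to 1000 UMIs gave share ratios of 2.22 (TAA against control), 0.842 (TAA+C7.5 against TAA), 1.00 (TAA+C30 against TAA, from below to above 1) and 1.19 (TAA+C30 against TAA+C7.5), and thinning to 500 gave 2.19, 0.825, 0.991 and 1.20. At 500 UMIs the NK or ILC share turned to 1.02 for TAA+C7.5 and 1.77 for TAA+C30 against TAA. Requiring 2 UMIs of the pair gave 3.88, 0.382 and, between doses, 1.91. At least 3 mitotic members gave 0.337 for TAA+C7.5 against TAA and 2.35 between doses. Leukocytes only gave 1.97 for TAA against control. With classes weighted equally (chosen after seeing the data), the ratios of share, mitotic and S phase level were 2.18, 2.15 and 1.39 for TAA against control, and 0.478, 0.808 and 0.895 for TAA+C30 against TAA. TAA+C7.5 against TAA then gave a share of 0.409 and a mitotic level of 0.770, and the doses compared gave 1.02, 0.986 (reversed) and 0.881.

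For TAA against control over all cells, the mitotic and S phase ratios were 1.91 and 1.27 with TMM scaling, 1.64 and 0.982 (reversed) as a mean over cells, 1.45 and 1.22 as the median over members, 1.81 and 1.20 without mitochondrial, ribosomal and haemoglobin genes, and 2.02 and 1.24 without the top member. For TAA+C7.5 against TAA they were 0.770 and 0.890, 0.842 and 1.09 (reversed), 0.835 and 0.940, and 0.818 and 0.947 in that order, and the mitotic ratio was 0.721 without the top member. For TAA+C30 against TAA they were 1.14 and 1.05 (reversed) with TMM, the mitotic ratio was 0.910 as a mean over cells, and the S phase ratio was 0.939 as a median and 0.953 without the top member. Between doses they were 1.53 and 1.22 with TMM and 1.08 and 0.839 over cells, the mitotic ratio was 1.21 as a median and 1.40 without the top member, and the S phase ratio was 1.04 without it. Adding Stmn1 and Hmgb2 gave mitotic ratios of 0.888, 1.16 and 1.31 for the comparisons after the first.

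In T cells the mean over cells reversed the mitotic ratio to 0.837 for TAA+C30 against TAA and to 1.00 between doses. In monocytes or macrophages clusters made with cell cycle genes gave 0.735 (mitotic) and 0.767 (S phase) for TAA+C30 against TAA and 0.986 (S phase) between doses, and naming each cell by its best marker set gave 0.953 (S phase, TAA+C30 against TAA). The cause was not tested.

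Counts of members depend on the threshold, and the share over all genes was not computed at the other settings. With 1 CPM added they were 21 in T cells (TAA against control), 14 in monocytes or macrophages and 18 in B cells (TAA+C7.5 against TAA), and 17 in monocytes or macrophages and 8 in T cells (TAA+C30 against TAA). At 2-fold they were 11 in monocytes or macrophages, 13 in endothelial, 7 in Kupffer and 1 in T cells (TAA against control). TAA+C7.5 against TAA then gave 18 in conventional dendritic cells 2, 7 in NK or ILC, 0 in monocytes or macrophages and 1 in B cells. TAA+C30 against TAA gave 13, 4 and 2 in the same first 3 classes and 0 in T cells, and the doses compared gave 4 in monocytes or macrophages. At least 30 UMIs gave 12 in NK or ILC (TAA against control). Sums of thinned cells (chosen after seeing the data), which hold fewer molecules, gave 9 in monocytes or macrophages, 18 in endothelial, 4 in NK or ILC and 8 in Kupffer cells. They gave 14, 6, 2 and 2 in dendritic, NK or ILC, monocyte or macrophage and B cells for TAA+C7.5, and 5 in NK or ILC and 1 in T cells for TAA+C30.

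Of the other values recomputed, 404 stayed within counting error, 176 moved beyond it and 8 reversed, all 8 given above. A value counted as reversed only if it crossed 1 and the main interval left out 1. Shares whose main interval included 1 also changed side. TAA+C30 against TAA ranged from 0.527 to 2.06 in monocytes or macrophages and from 0.106 to 2.13 in B cells. Between doses the share of conventional dendritic cells 2 ranged from 0.523 to 3.94. No paired analysis was possible because each group has 1 mouse.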
